A study of Homo sapiens with 24 samples.

Results

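The effect of RELA knockdown on mature miRNAs was examined in adherent OV90 cells, an established human epithelial ovarian cancer line grown attached to plastic. Of the 24 miR-seq libraries of the study, the 8 labelled as adherent shRELA or adherent shNeg entered this comparison, 4 in each group, and 905 of the 2656 mature miRNAs in the deposited table had enough counts to be tested. The shRELA cells carried an inducible shRNA against RELA, and the shNeg cells, whose genotype the labels give as wild type, were taken as the negative control shRNA from their titles and from the study's text. Doxycycline, the inducer, was given to every group at 1 µg/ml for 72 h, so the control cells were exposed to it too. Adherent cells were kept in RPMI medium with serum free of tetracycline. The groups set beside this comparison were adherent shRELB cells, which carried an shRNA against RELB, and shNeg and shRELA cells grown as spheroids in ultra-low attachment vessels with KnockOut serum replacement, insulin-transferrin-selenium, EGF and FGF. The sources used here do not say whether each cell line was a clone or whether replicates were separate cultures, so the p-values measure only the spread between these libraries, which may be technical. miR-seq does not read the RELA mRNA, and these libraries do not show how far RELA was silenced.

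RELA, also called p65, is the activating subunit of the canonical NF-κB pathway. In resting cells it is held in the cytoplasm by IκB proteins, and after inflammatory signals it enters the nucleus, where it binds κB sites in promoters and enhancers, miRNA genes included. RELB acts in the non-canonical pathway. A miRNA is cut from a hairpin in a longer transcript, and either arm of the hairpin (5p or 3p) can be loaded into the silencing complex. Bases 2 to 8 of the loaded strand, the seed, select the mRNAs that it represses. Hairpins that lie close together are often made from a single transcript, so their miRNAs can rise or fall as a unit.

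The mature sequences of the miRNAs that the results turn on are given first, from RefSeq annotation of GRCh38.p14, 5′ to 3′ with the seed in capitals. Of the 905 miRNAs tested, 795 were found in that table, among them all 34 that were differentially expressed. The first set shows the 5 strands made from hairpins of MIR99AHG, a long non-coding RNA gene on chromosome 21, which held the largest decreases.
miR-99a-5p: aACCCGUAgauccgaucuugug
miR-99a-3p: cAAGCUCGcuucuaugggucug
let-7c-5p: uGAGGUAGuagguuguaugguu
miR-125b-5p: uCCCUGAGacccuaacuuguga
miR-125b-2-3p: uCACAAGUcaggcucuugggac
The next set shows other down-regulated strands, those of GABRE (miR-224-5p and miR-452-5p), those of CARMN (miR-143-3p and miR-145-5p) and let-7b-5p, miR-205-5p, miR-375-3p and miR-181a-2-3p.
miR-224-5p: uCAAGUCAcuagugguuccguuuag
miR-452-5p: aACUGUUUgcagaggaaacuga
miR-143-3p: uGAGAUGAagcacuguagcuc
miR-145-5p: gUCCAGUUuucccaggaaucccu
let-7b-5p: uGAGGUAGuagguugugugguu
miR-205-5p: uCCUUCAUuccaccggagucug
miR-375-3p: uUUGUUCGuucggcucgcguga
miR-181a-2-3p: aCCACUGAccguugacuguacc
The last set holds the up-regulated strands that were called under every alternative tried.
miR-155-5p: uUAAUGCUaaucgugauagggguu
miR-30a-5p: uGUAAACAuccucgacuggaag
miR-30a-3p: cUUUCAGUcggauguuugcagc
miR-30c-2-3p: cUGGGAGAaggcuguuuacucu
miR-345-5p: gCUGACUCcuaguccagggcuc

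Among the 34 there were 33 different seeds, since let-7b-5p and let-7c-5p share GAGGUAG. Some of these strands differ from a relative that was not called at 1 or 2 bases, which matters for how reads are assigned. The relatives are shown for comparison, and positions are counted from 1 at the 5′ end.
let-7a-5p: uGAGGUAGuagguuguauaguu
miR-100-5p: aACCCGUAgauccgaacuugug
miR-30e-5p: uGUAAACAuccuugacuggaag
From let-7a-5p to let-7c-5p the change was A19G, and let-7b-5p differed from let-7a-5p by A17G and A19G. From miR-100-5p to miR-99a-5p it was A16U, and from miR-30e-5p to miR-30a-5p it was U13C. All of these changes lay outside the seed. How the authors' counting shared out reads between such relatives is not given in the sources used here. The levels of let-7c-5p, let-7b-5p, miR-99a-5p, miR-100-5p, miR-30a-5p, miR-30a-3p, miR-135b-5p and miR-146b-5p therefore carry that uncertainty. miR-146b-5p is included because it differs at 2 bases from the far more abundant miR-146a-5p.

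The shNeg libraries held 3797175 to 6624182 counts each (median 6287111) and the shRELA libraries 5282889 to 8283549 (median 6567665). Where a library holds no count of a miRNA, up to 3 remain possible. That limit equals 0.453 to 0.790 CPM with shNeg and 0.362 to 0.568 CPM with shRELA, and such limits and the intervals given later cover counting error only. Levels below are in CPM, counts relative to a library total scaled by the TMM method. The shRELA libraries were not all alike. Replicates 1 and 4 lay close together (correlation of log2 CPM 0.998 over the 310 miRNAs averaging 10 CPM or more) and replicates 3 and 4 lay farthest apart (0.984). The mean of replicates 1 and 4 exceeded that of 2 and 3 by a median of 0.33 on the log2 scale over 278 of these miRNAs with a sequence, by 0.74 for the 45 with under 40% GC and by 0.02 for the 77 with over 55% GC. Their TMM factors were 0.812 and 0.730, against 0.923 and 0.994. Across the same miRNAs the log2 fold change of shRELA over shNeg did not follow GC content (Pearson r 0.026, a description over miRNAs of the same libraries). A different library, spheroid shNeg replicate 1, held counts on 432 miRNAs, against 813 to 885 in the other 3 of its group. It is in no adherent comparison, but it bears on the shared estimate of spread.

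With RELA knockdown in adherent cells, 34 of the 905 miRNAs tested (3.76%) differed from shNeg in edgeR's quasi-likelihood test. The limits were 0.01 on the FDR and 2 on the fold change in either direction. Whether the changes followed from RELA loss or from other differences between the lines was not tested. The 34 are referred to as called or differentially expressed. Of these, 24 were down-regulated (2.65% of those tested) and 10 were up-regulated (1.10%). The values of the 4 shRELA libraries did not overlap those of the 4 shNeg libraries for any of the 34, while 20.7% of all miRNAs tested were free of overlap. The median log2 fold change was -1.96 for the down-regulated and 1.84 for the up-regulated miRNAs, against 0.09 for all miRNAs tested, of which 55% lay above 0. The fold limit puts the called medians beyond 2-fold by selection, and the call also favours groups without overlap. Those averaging 10 CPM or more numbered 22, of which 14 were down-regulated and 8 up-regulated. A further 9 miRNAs passed the FDR but changed by less than 2-fold. When only the 8 libraries compared were fitted, the count rose to 57 (6.30%), 40 down-regulated and 17 up-regulated, and 33 of the 34 were among them. The exception was miR-7-5p, whose log2 fold change there was 0.99. Scaling by library totals in place of TMM also gave 34 calls, split into 28 down-regulated and 6 up-regulated, with 30 kept and 4 gained.

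**Figure D1:**
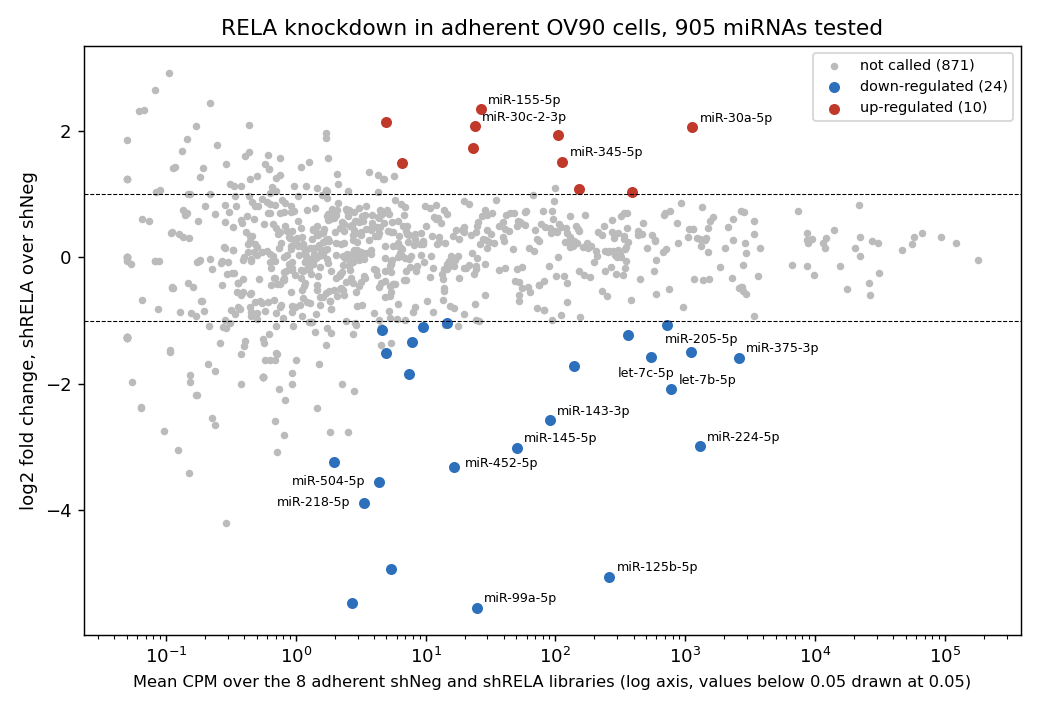
Each of the 905 miRNAs tested is a point at its mean CPM over the 8 libraries (x, log axis) and its log2 fold change of shRELA over shNeg (y), with the 24 down-regulated in blue, the 10 up-regulated in red and dashed lines at a 2-fold change. The most abundant miRNAs at the right edge lie near 0, and the lowest points include miR-99a-5p at -5.54 and miR-125b-5p at -5.05, which are of middle abundance, beside scarce strands such as miR-99a-3p at -5.46.

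The bulk of the miRNA pool was not among the calls. miR-125a-5p, the most abundant miRNA, took 16.1% to 17.6% of the counts with shNeg and 14.4% to 16.0% with shRELA (log2 fold change -0.04 ± 0.17, SE). let-7e-5p took 9.51% to 11.1% and 9.91% to 12.4%, and let-7a-5p 7.33% to 7.92% and 8.49% to 9.24%. None of the 12 most abundant miRNAs was differentially expressed, and of these miR-146a-5p came nearest, with a log2 fold change of -0.60 ± 0.17 (FDR 0.0191). The miRNAs that did pass took small shares of the pool.

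The largest decreases came from the MIR99AHG locus. MIR99A (chr21:16539089-16539169, in an intron) and MIRLET7C (chr21:16539828-16539911, in an exon) are 658 bases apart on the plus strand, and MIR125B2 (chr21:16590237-16590325, in an exon) follows 50325 bases further on. All coordinates here are RefSeq positions in GRCh38.p14, and the exon and intron placements are from GENCODE v44. All 5 strands of the locus that were tested were down-regulated.

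miR-125b-5p, which is known to repress TNF mRNA, stood at 522, 463, 529.7 and 504 CPM in the shNeg libraries and at 14.9, 13.9, 15.2 and 16.7 CPM in the shRELA libraries. The shRELA libraries were alike and far below every shNeg library. The log2 fold change was -5.05 ± 0.24 (33.1-fold, FDR 6.91e-18), the smallest FDR of the comparison. The mature strand can also come from MIR125B1 on chromosome 11 (chr11:122099757-122099844), and its reads do not tell the hairpins apart.

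The other arm, miR-125b-2-3p, is made from MIR125B2 alone. It stood at 10.3, 11.5, 9.86 and 10.7 CPM with shNeg, and with shRELA it was at 0, 0.191, 0.952 and 0.165 CPM, which were 0, 1, 5 and 1 counts. Its log2 fold change was -4.93 ± 0.63 (FDR 3.11e-07). The strand that marks the chromosome 21 hairpin thus changed by about as much as the shared strand, within the errors of the estimates.

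miR-99a-5p, a repressor of MTOR, was at 56.0, 46.1, 48.2 and 44.7 CPM with shNeg and at 1.16, 0.763, 1.14 and 0.993 CPM with shRELA. It had the lowest log2 fold change of all calls, -5.54 ± 0.47 (46.5-fold, FDR 5.20e-11), and each shRELA library held only 4 to 7 of its counts. Its other arm, miR-99a-3p, held 115 counts in the shNeg libraries and 2 in the shRELA libraries, a ratio of 61.3 with a 95% exact counting interval of 16.6 to 513. Both arms of MIR99A therefore fell to a few counts per library.

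let-7c-5p, whose family represses RAS, HMGA2 and LIN28 mRNAs, fell less. It was at 805, 823, 831 and 790.4 CPM with shNeg and at 283, 253, 255 and 300.5 CPM with shRELA, with a log2 fold change of -1.57 ± 0.18 (FDR 2.01e-08). The groups did not overlap, and the decrease was far smaller than that of miR-99a-5p, whose hairpin lies beside it. let-7a-5p, from which it differs by A19G, had a mean of 92599 CPM over the 8 libraries, and the part of let-7a-5p reads in the let-7c-5p counts was not tested.

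Of the related clusters on other chromosomes, the one holding miR-99b, let-7e and miR-125a was among the most abundant sources of miRNA in these cells, and none of its 6 strands tested was called. Its log2 fold changes ran from -0.04 for miR-125a-5p to 0.22 for let-7e-5p. miR-100-5p, assigned to MIR100 on chromosome 11, was scarce, at 3.05 to 5.64 CPM with shNeg and 0.331 to 0.952 CPM with shRELA. Its log2 fold change of -2.76 ± 0.85 missed the threshold (FDR 0.0340) but passed in the fit of the 8 libraries (FDR 2.85e-05). It differs from the more abundant miR-99a-5p only by A16U, and the part of miR-99a-5p reads in its counts was not tested. Over the 12 tested strands of the clusters that pair miR-99 or miR-100 with let-7 and miR-125 hairpins, 5 were down-regulated and none was up-regulated, against 2.65% and 1.10% of all miRNAs tested, with a median log2 fold change of -0.81 against 0.09. For the count of 0 up-regulated, edgeR gave 0 strands above 0 at an unadjusted p under 0.05, and DESeq2 and limma also called 0.

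**Figure D2:**
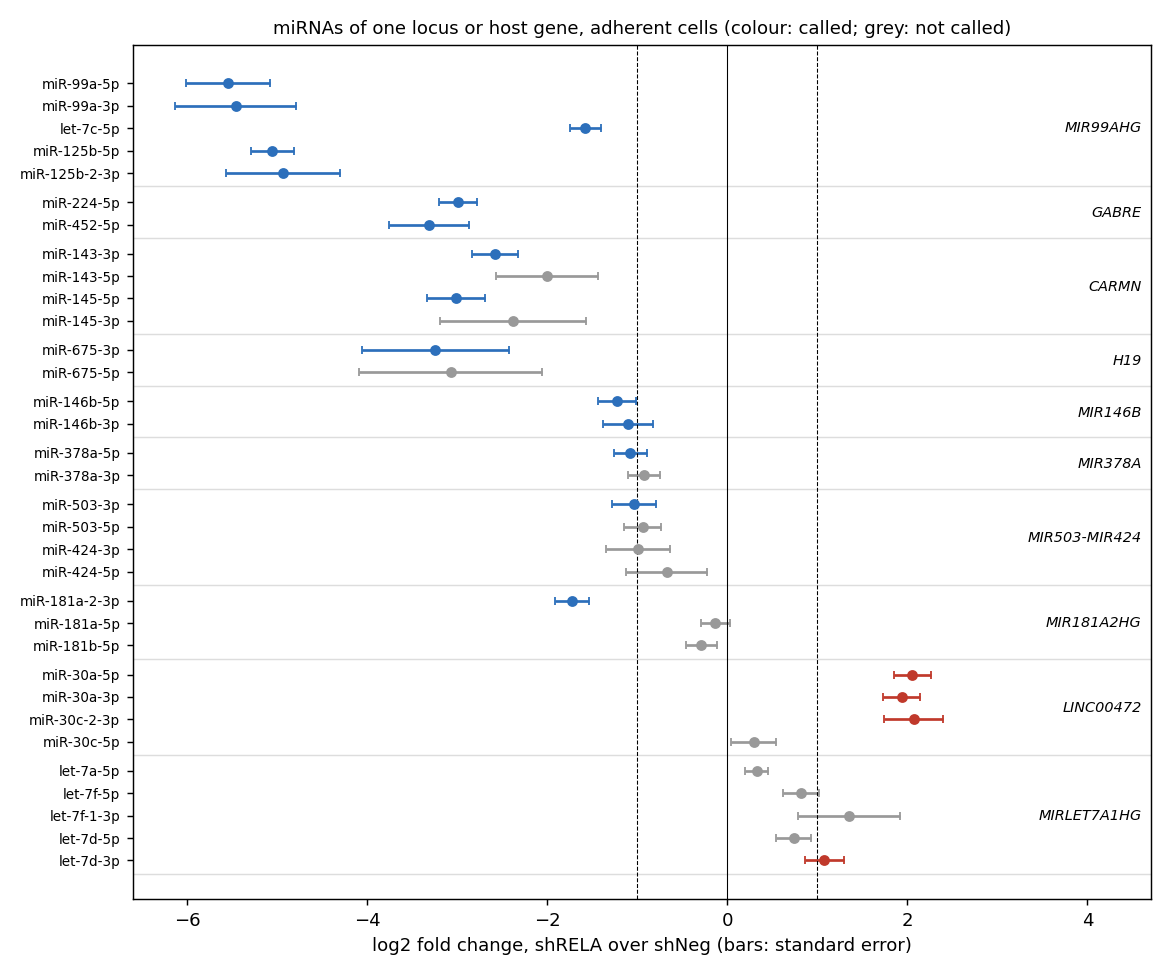
Log2 fold change of shRELA over shNeg (x) with its standard error for strands grouped by the host gene or hairpin locus named at the right, coloured where differentially expressed (blue down, red up) and grey where not, with dashed lines at a 2-fold change. The 4 strands of MIR99A and MIR125B2 lie between -5.54 and -4.93 while let-7c-5p of the same host gene lies at -1.57, and miR-181a-2-3p at -1.72 stands apart from miR-181a-5p at -0.13.

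GABRE, which encodes the epsilon subunit of the GABA-A receptor, holds the second locus, on the minus strand of chromosome X. MIR224 (chrX:151958578-151958658) and MIR452 (chrX:151959628-151959712) overlap annotated exons and are 969 bases apart. miR-224-5p was at 2427, 2157, 2309.7 and 2292 CPM with shNeg and at 264, 306, 247 and 340.2 CPM with shRELA. This was the most abundant of the strands that fell by more than 4-fold, with a log2 fold change of -2.99 ± 0.21 (7.94-fold, FDR 8.18e-13).

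miR-452-5p, which the study selected for its functional work, was at 35.1, 25.6, 28.9 and 31.3 CPM with shNeg and at 3.63, 2.48, 1.52 and 4.30 CPM with shRELA. The groups were well apart, with a log2 fold change of -3.32 ± 0.44 (9.96-fold, FDR 7.76e-07). Both strands of the locus that were tested were therefore down-regulated by similar amounts. Because miR-452-5p was among the 9 candidates that the study picked from this miR-seq series, which it listed with their spheroid values, its direction here is not independent evidence.

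CARMN, a long non-coding RNA gene best known from smooth muscle, holds MIR143 (chr5:149428918-149429023, exon) and MIR145 (chr5:149430646-149430733, intron), 1622 bases apart. miR-145-5p was at 89.2, 107, 87.3 and 75.8 CPM with shNeg and at 10.1, 15.8, 6.66 and 11.9 CPM with shRELA (log2 fold change -3.01 ± 0.32, FDR 1.09e-08). miR-143-3p was at 167, 147, 159.9 and 149.7 CPM with shNeg and at 35.2, 26.3, 15.8 and 27.0 CPM with shRELA (-2.58 ± 0.26, FDR 2.44e-09). Both strands are abundant in smooth muscle and other mesenchymal cells and scarce in epithelial cells. The scarcer arms of both hairpins had log2 fold changes of -2.0 ± 0.57 for miR-143-5p (FDR 0.0191) and -2.38 ± 0.81 for miR-145-3p (FDR 0.0722), short of the threshold over 24 libraries and past it in the fit of the 8 (FDR 2.99e-04 and 0.00267).

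let-7b-5p was down-regulated as well. Its hairpin MIRLET7B (chr22:46113686-46113768) lies in an exon of MIRLET7BHG beside MIRLET7A3. The level was 1245, 1156, 1328 and 1333 CPM with shNeg and 299, 308, 287 and 302 CPM with shRELA, with no overlap and a log2 fold change of -2.08 ± 0.18 (4.23-fold, FDR 9.68e-11). let-7a-5p, made from MIRLET7A3 and from other hairpins, had a log2 fold change of 0.33 ± 0.13 (FDR 0.145). No strand made only by a neighbouring hairpin was tested, so whether the neighbours changed cannot be told.

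Of the 9 let-7 guide strands tested, 2 were down-regulated (let-7b-5p and let-7c-5p) and none was up-regulated, with a median log2 fold change of 0.29. Over all miRNAs tested, 2.65% were down-regulated, 1.10% were up-regulated and the median was 0.09. The other 7 all lay above 0, from 0.14 for let-7i-5p to 0.85 for miR-98-5p. let-7f-5p passed the FDR (0.00616) with a log2 fold change of 0.82 ± 0.20, short of 2-fold. For the count of 0 up-regulated, 4 strands lay above 0 at an unadjusted p under 0.05 in edgeR, and DESeq2 and limma called 0. The summed level of the 9 strands was 230107 to 253039 CPM with shNeg and 266956 to 339076 CPM with shRELA. With shNeg, let-7b-5p was at 1156 to 1333 CPM and let-7c-5p at 790 to 831 CPM. These are too small a part of the sum for their decrease to show in it.

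A pair of epithelial miRNAs of high abundance were also lower. miR-375-3p, prominent in secretory epithelia and pancreatic islets, was at 3539.8, 4093, 3824 and 4151 CPM with shNeg and at 1309.6, 1368, 1123 and 1397 CPM with shRELA (log2 fold change -1.59 ± 0.25, FDR 1.37e-05). miR-205-5p, a miRNA of basal and squamous epithelium that represses ZEB1 and ZEB2, was at 1637, 1532, 1669.7 and 1649 CPM with shNeg and at 564, 521, 583 and 635 CPM with shRELA (-1.49 ± 0.18, FDR 1.13e-07). Both changes were close to 3-fold. MIR205 lies in an exon of MIR205HG (chr1:209432133-209432242), and MIR375 lies outside the annotated genes on chromosome 2 (chr2:219001645-219001708).

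miR-181a-2-3p was down-regulated without a like change in miR-181a-5p, the other arm of its hairpin. It was at 212, 201, 216 and 226 CPM with shNeg and at 61.4, 63.0, 63.6 and 70.8 CPM with shRELA (log2 fold change -1.72 ± 0.19, FDR 1.22e-08). The guide arm miR-181a-5p, at a mean of over 10000 CPM, had a log2 fold change of -0.13 ± 0.16 (FDR 0.707), and the neighbour miR-181b-5p -0.29. miR-181a-5p can also come from MIR181A1 on another chromosome, whereas the called strand comes from MIR181A2 alone (chr9:124692442-124692551, in an intron of MIR181A2HG). miR-181b-5p can come from another hairpin too. Whether the arms of MIR181A2 changed differently can therefore not be told from these reads.

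miR-146b-5p, a relative of miR-146a that damps NF-κB signalling through IRAK1 and TRAF6, was at 567, 471, 488 and 492 CPM with shNeg and at 234, 178, 184 and 265 CPM with shRELA (log2 fold change -1.23 ± 0.21, FDR 5.77e-05). Its other arm, miR-146b-3p, changed by -1.10 ± 0.28 (FDR 0.00858). Both arms of MIR146B (chr10:102436512-102436584) were thus lower, by a little over 2-fold. miR-378a-5p, made in an intron of PPARGC1B, went from 982 ± 82.3 (SD, n = 4) to 466 ± 27.3 CPM (-1.08 ± 0.18, FDR 4.72e-05). Its more abundant arm, miR-378a-3p, passed the FDR (3.47e-04) at a log2 fold change of -0.93 ± 0.18 and so missed the 2-fold limit. miR-503-3p, of a cluster with miR-424 that restrains the cell cycle, was at 19.7 ± 1.97 and 9.58 ± 1.35 CPM (-1.04 ± 0.24, FDR 0.00399). The 8 other strands of the miR-503 cluster that were tested all lay below 0, from -0.99 for miR-424-3p to -0.21 for miR-542-3p, and none was called.

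The remaining down-regulated miRNAs averaged under 10 CPM. The largest decreases among them were of miR-218-5p, made in introns of SLIT2 and SLIT3, with 4, 2, 1 and 2 counts in the shRELA libraries against 26 to 45 with shNeg (-3.88 ± 0.78, FDR 7.54e-04), and of miR-504-5p, made in an intron of FGF13, with 2, 2, 5 and 6 counts against 18 to 64 (-3.55 ± 0.53, FDR 6.68e-06). miR-675-3p, cut from the imprinted non-coding RNA H19, held 78 counts with shNeg and 8 with shRELA, 2 in each library, a ratio of 10.4 (95% exact counting interval 5.03 to 24.9). The others were miR-891a-5p (-1.84 ± 0.30), miR-135b-5p (-1.51 ± 0.37), miR-1293 (-1.34 ± 0.29) and miR-509-3p (-1.15 ± 0.26). Of the 24 down-regulated miRNAs, 6 (25%) come from chromosome X, against 9.43% of the miRNAs tested with a known position, and miR-224-5p and miR-452-5p of that 6 share a host gene.

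miR-155-5p had the largest increase. It is an inflammatory miRNA cut from MIR155HG (chr21:25573980-25574044), a gene that NF-κB is known to activate in immune cells. It was at 7.29, 9.33, 9.68 and 8.76 CPM with shNeg and at 38.8, 50.9, 45.9 and 42.2 CPM with shRELA. The groups were far apart, and the log2 fold change was 2.34 ± 0.32 (5.06-fold, FDR 9.76e-07).

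Strands of the miR-30 hairpins on chromosome 6 were up-regulated, and of these miR-30a-5p was the most abundant of all 10 up-regulated miRNAs. The miR-30 family represses autophagy and mesenchymal genes such as BECN1 and SNAI1. MIR30C2 (chr6:71376960-71377031) and MIR30A (chr6:71403551-71403621) lie 26519 bases apart on the minus strand in LINC00472. miR-30a-5p was at 474, 417, 453 and 415 CPM with shNeg and at 2081, 1509, 1243 and 2484 CPM with shRELA (log2 fold change 2.06 ± 0.20, 4.16-fold, FDR 1.88e-09). Replicates 1 and 4 of shRELA were higher than replicates 2 and 3, but all 4 were above every shNeg library.

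The other arm, miR-30a-3p, was at 39.8, 39.999, 49.3 and 43.3 CPM with shNeg and at 194, 144, 112 and 211 CPM with shRELA (1.94 ± 0.21, FDR 1.05e-08). miR-30c-2-3p, which marks MIR30C2, was at 8.79, 6.13, 9.32 and 12.2 CPM and at 39.3, 34.5, 37.7 and 43.0 CPM (2.07 ± 0.33, FDR 1.68e-05). Its shRELA replicates were closer together than those of miR-30a. The partner miR-30c-5p, which also comes from MIR30C1 on chromosome 1, was at 977 to 1501 CPM with shNeg and 1046 to 1893 CPM with shRELA, with overlap and a log2 fold change of 0.29 ± 0.25 (FDR 0.585). Of the 11 miR-30 strands tested, these 3 were up-regulated and none was down-regulated, against 1.10% and 2.65% of all miRNAs tested, and the median was 0.36 against 0.09. For the count of 0 down-regulated, 0 strands lay below 0 at an unadjusted p under 0.05 in edgeR, and DESeq2 and limma called 0.

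miR-345-5p was at 59.7, 60.3, 55.4 and 59.3 CPM with shNeg and at 188, 147, 134 and 199 CPM with shRELA, again with replicates 1 and 4 the higher (log2 fold change 1.51 ± 0.19, FDR 3.78e-07). Its hairpin lies outside annotated genes (chr14:100307859-100307956). The last 5 up-regulated miRNAs were miR-5699-3p (2.14 ± 0.53), miR-1468-5p (1.73 ± 0.39), miR-2277-5p (1.49 ± 0.38), let-7d-3p (1.08 ± 0.22) and miR-7-5p (1.03 ± 0.24), a repressor of EGFR. miR-7-5p, for example, was at 238 to 268 CPM with shNeg and at 689, 391, 329 and 689 CPM with shRELA. When shRELA replicates 1 and 4 were left out, an alternative added later with the values known, these 5 calls were lost and miR-155-5p, miR-30a-5p, miR-30a-3p, miR-30c-2-3p and miR-345-5p were still called.

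**Figure D3:**
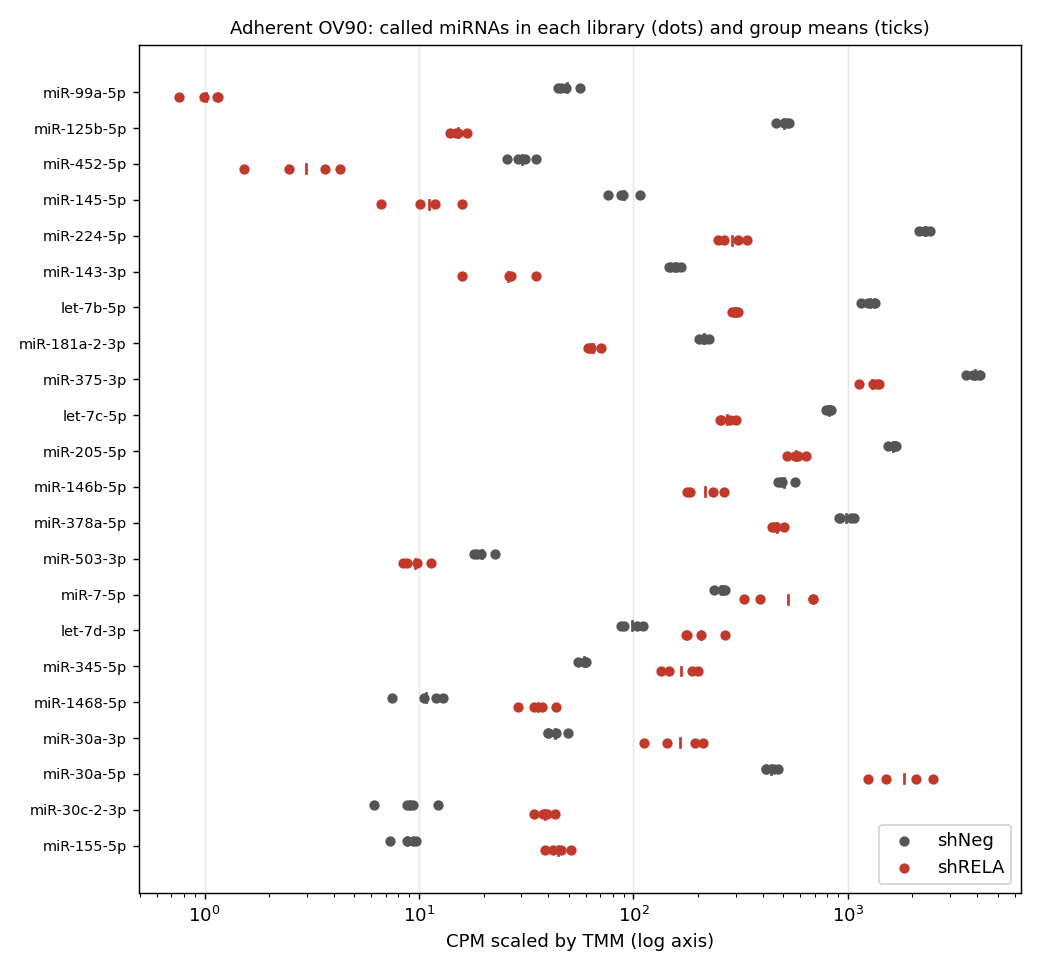
TMM-scaled CPM (x, log axis) of the 22 called miRNAs that averaged 10 CPM or more, with a dot for each of the 4 shNeg (grey) and 4 shRELA (red) libraries and a tick at each group mean. No row has overlapping groups, miR-99a-5p and miR-125b-5p show the widest gaps, and the red dots of miR-30a-5p, from 1243 to 2484 CPM, spread more than those of let-7b-5p, from 287 to 308 CPM.

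Hairpins and families were compared over the whole set. Among the 34, 12 (35.3%) came from hairpins with another within 10000 bases on the same strand, against 30.2% of the 795 tested miRNAs with a sequence. For 20 of the 34 the other arm of the hairpin was tested too. It lay on the same side of 0 in all 20 and was itself called in 8, while for 14 no other arm was tested. The 8 were the arms of MIR99A, MIR125B2, MIR146B and MIR30A, each hairpin being counted once from either arm. Of all miRNAs tested, 3.76% were called. The share on the same side of 0 over all tested pairs of arms was not determined. The median GC content of the mature strands was 53.4% for the down-regulated, 50.0% for the up-regulated and 54.5% for the 795 tested miRNAs with a sequence.

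miRNAs linked with NF-κB by earlier knowledge moved in both directions. The list was drawn up with earlier results of these data known. It holds both arms of MIR146B, and miR-452-5p, which the study picked from this series. Of 15 tested, 1 was up-regulated (miR-155-5p) and 4 were down-regulated (miR-125b-5p, miR-452-5p, miR-146b-5p and miR-146b-3p), with a median log2 fold change of -0.15 against 0.09 over all miRNAs tested, of which 1.10% were up-regulated and 2.65% down-regulated. miR-21-5p, a target of several inflammatory pathways, stood at 47480.5 to 55727 CPM with shNeg and at 46756 to 82915 CPM with shRELA, with overlapping groups and a log2 fold change of 0.33 ± 0.22 (FDR 0.469). miR-221-3p and miR-222-3p, which share a cluster, were at -0.50 ± 0.19 and -0.53 ± 0.21 (FDR 0.117 and 0.138).

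None of the 8 miR-200 family and miR-141 strands tested was called by edgeR, although 7 of 8 lay below 0. The median was -0.98 against 0.09 over all miRNAs tested. Over all miRNAs 1.10% were up-regulated and 2.65% down-regulated, so the lack of a call among 8 strands says little. These miRNAs keep cells epithelial by repressing ZEB1 and ZEB2. At an unadjusted p under 0.05, edgeR gave 3 strands below 0 and 0 above, DESeq2 called 2 down-regulated and limma 0. miR-200c-3p, by far the most abundant, was at 3129, 3136, 3151 and 3263 CPM with shNeg and at 2537, 1869.7, 2151 and 2638 CPM with shRELA, without overlap but with a log2 fold change of only -0.46 ± 0.20 (FDR 0.182). miR-200b-3p was at -1.08 ± 0.33 (FDR 0.0302) and miR-200a-3p at -1.35 ± 0.44 (FDR 0.0559), and both passed in the fit of the 8 libraries.

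The 6 miR-17-92 strands tested, of a cluster known to promote proliferation, gave no call in either direction by edgeR, DESeq2 or limma over the 24 libraries. All 6 lay above 0 (median 0.46 against 0.09 over all miRNAs tested, range 0.21 to 0.84), and at an unadjusted p under 0.05 edgeR gave 0 of them. In 5 epithelial lineage miRNAs 1 was down-regulated (miR-205-5p, median -0.85), in 4 miR-135 strands 1 (miR-135b-5p, median -0.34) and in 8 strands of imprinted loci 1 (miR-675-3p, median -0.44), and none of these lists had an up-regulated member by any of the 3 tools. Of all miRNAs tested, 1.10% were up-regulated and 2.65% down-regulated, so the lack of a call in lists this short says little. At an unadjusted p under 0.05, edgeR gave 0, 0 and 1 of their strands above 0.

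The lists that the study itself drew from this miR-seq series are not independent evidence of direction. Of the 7 miRNAs it reported as shared by its knockdowns and cultures, miR-155-5p was up-regulated and let-7b-5p, miR-205-5p and miR-224-5p were down-regulated here. The other 3 lay below 0 but did not pass over the 24 libraries, with log2 fold changes of -2.76 for miR-100-5p, -3.07 ± 1.02 for miR-675-5p (FDR 0.0579) and -0.98 ± 0.52 for miR-552-5p (FDR 0.335), and in the fit of the 8 libraries all 3 passed. miR-675-5p rested on 30 counts against 3, a ratio of 10.7 (95% exact counting interval 3.32 to 54.6). Of the 9 candidates, miR-155-5p, miR-30a-5p and miR-30a-3p were up-regulated and miR-452-5p was down-regulated. Beside both lists, the shares over all miRNAs tested were 1.10% up-regulated and 2.65% down-regulated.

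miR-335-5p, the second miRNA of the study's functional work, is made in an intron of the imprinted gene MEST. It was at 52.9, 74.1, 69.9 and 54.8 CPM with shNeg and at 145, 96.2, 62.7 and 234 CPM with shRELA. Replicate 3 of shRELA fell inside the shNeg range, and the log2 fold change of 1.10 ± 0.44 did not pass (FDR 0.137), while in the fit of the 8 libraries it did (FDR 0.00153). miR-34a-5p was at 1952 to 2313 CPM with shNeg and 2954 to 4099 CPM with shRELA, without overlap, at a log2 fold change of 0.72 ± 0.20 (FDR 0.0189). The other candidates that did not pass were miR-200c-3p, miR-105-5p (-0.27 ± 0.18) and miR-105-3p (0.18 ± 0.50).

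Markers of cell identity were read beside these results. All 8 epithelial markers lay below 0 with RELA knockdown, 2 of them called down-regulated (miR-205-5p and miR-375-3p), against 2.65% of all miRNAs tested, with a median log2 fold change of -1.42 against 0.09. Their summed level was 8468 to 9224 CPM with shNeg and 3854 to 4846 CPM with shRELA. miR-429 and miR-203a-3p were near the floor in every library, at up to 1.60 CPM and 0.897 CPM. Of 22 markers of other cell types, 16 were tested, 2 were called (miR-143-3p and miR-145-5p, both down-regulated) and none was up-regulated, by DESeq2 and limma as well. The shares over all miRNAs tested were 2.65% down-regulated and 1.10% up-regulated. At an unadjusted p under 0.05, edgeR gave 4 of the 16 above 0 and 4 below. Their summed level was 25689 to 28512 CPM with shNeg and 25494 to 38317 CPM with shRELA, and their median was -0.48. Most of that sum was miR-122-5p, best known from liver, at 18537 to 20863 CPM with shNeg and 19191.5 to 29400.1 CPM with shRELA, and miR-126-3p, known from endothelium, at 6263 to 7357 and 3835 to 8826 CPM. miR-124-3p, a neuronal miRNA, held 12 counts with shNeg and 0 with shRELA, too few for a fold change. In bulk RNA, fewer cells of a type and less RNA per cell cannot be told apart, and the part of any such cells in the results was not tested.

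The direct test between shRELA and shRELB cells was used to see which changes differed between the knockdowns. Over all miRNAs it called 98 of 905 (10.8%). Of the 34, 23 differed between shRELA and shRELB, 18 down-regulated and 5 up-regulated with shRELA. The 34 were selected for a large change in the same shRELA libraries, so the selection favoured a difference in this test. The count of 23 therefore cannot be weighed against the 10.8%. The difference was widest for miR-99a-5p, at -5.74 ± 0.47 (FDR 1.65e-11), miR-125b-2-3p, at -5.57 ± 0.63, miR-99a-3p, at -5.42 ± 0.67, and miR-125b-5p, at -5.24 ± 0.24 (FDR 2.82e-18). With shRELB, miR-99a-5p, miR-125b-2-3p and miR-125b-5p were at 46.8 to 59.9, 12.045 to 19.9 and 479.6 to 689 CPM. The ranges of miR-99a-5p and miR-125b-5p overlapped those of shNeg, and that of miR-125b-2-3p lay above it. let-7c-5p differed by -2.08 ± 0.18 and miR-375-3p by -1.56 ± 0.25.

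miR-30a-5p differed from shRELB by 1.62 ± 0.20 and miR-345-5p by 1.27 ± 0.19. miR-135b-5p was called in opposite directions, -1.51 ± 0.37 with shRELA and 1.73 ± 0.34 with shRELB (difference -3.24 ± 0.37, FDR 3.76e-08), where shRELB libraries held 18.7 to 34.9 CPM. Its shRELA call was kept in 8 of 20 alternatives, of which 19 tested it. The call was lost without any 1 of the 8 libraries, with the log2 fold change then at -1.59 to -1.44. miR-224-5p was down-regulated with either shRNA, and more with shRELA (difference -1.21 ± 0.20, FDR 2.26e-05). The 11 whose difference did not pass included let-7b-5p (0.54 ± 0.18, FDR 0.0225), miR-205-5p (-0.22 ± 0.18, FDR 0.442) and miR-155-5p (-0.76 ± 0.29, FDR 0.0548), a result that does not show equal change. The adherent shNeg libraries serve both knockdown comparisons. Called in both were 8 miRNAs, which were 23.5% of the 34 and 12.5% of the 64 called with shRELB (7.07% of those tested), 7 of them in the same direction.

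**Figure D4:**
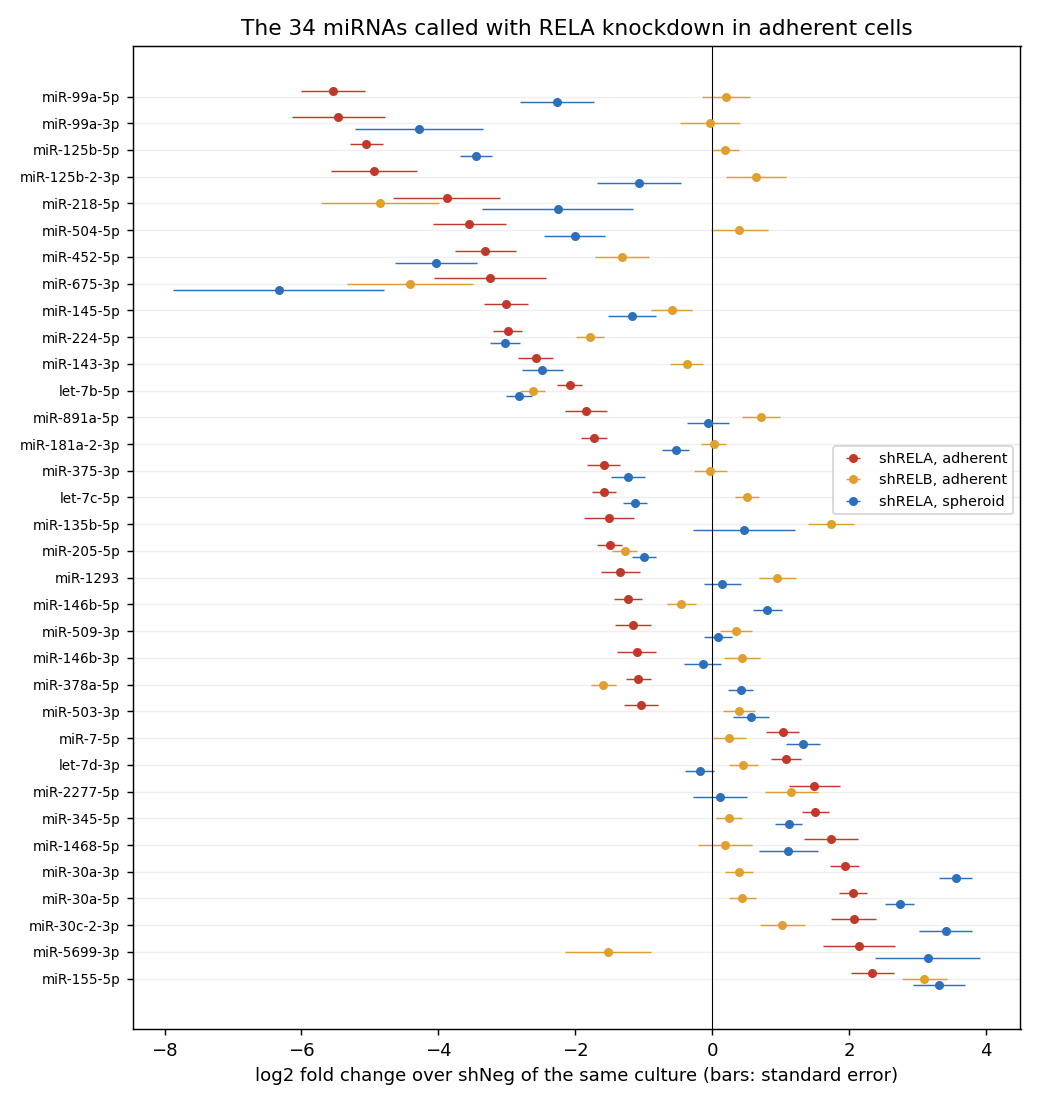
Log2 fold change with its standard error (x) of the 34 miRNAs for shRELA in adherent cells (red), shRELB in adherent cells (orange) and shRELA in spheroids (blue), each over shNeg of its own culture. At the top, miR-99a-5p and miR-125b-5p lie at -5.54 and -5.05 in red and at 0.20 and 0.19 in orange, while let-7b-5p, miR-205-5p and miR-155-5p lie on the same side of 0 in all 3 colours.

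Spheroid culture gave a second set of libraries with the same shRNA. Over all miRNAs, 137 of 905 (15.1%) were called with RELA knockdown in spheroids, and the test of the difference between cultures called 69 (7.62%). Of the 34, 18 were also called in spheroids, all in the same direction, which were 52.9% of the 34 and 13.1% of the 137. They were 11 down-regulated and 7 up-regulated miRNAs. miR-224-5p changed by -3.03 ± 0.22 in spheroids against -2.99 in adherent cells (difference -0.04 ± 0.28, FDR 0.962), and miR-143-3p by -2.48 ± 0.30 against -2.58 (difference 0.10 ± 0.41, FDR 0.901).

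For 13 of the 34 the change with RELA knockdown differed between the cultures, and in 12 of these it was smaller in spheroids or on the other side of 0. The 34 were selected for a large change in adherent cells, which also enters this difference, so the selection favoured smaller changes in spheroids. The count of 12 therefore cannot show by itself that the changes were weaker in spheroids. miR-99a-5p changed by -2.26 ± 0.54 in spheroids (difference 3.27 ± 0.76, FDR 0.00284) and miR-125b-5p by -3.45 ± 0.23 (1.60 ± 0.30, FDR 4.11e-04). In spheroids miR-99a-5p was at only 0 to 16.8 CPM with shNeg, too low to show a decrease as large as in adherent cells. miR-146b-5p was at 0.81 ± 0.21 in spheroids, so the sign of its estimate turned (difference 2.04 ± 0.30, FDR 2.92e-05). The exception was miR-30a-3p, whose increase was larger in spheroids, 3.56 ± 0.24 (difference 1.62 ± 0.31, FDR 4.14e-04). Without spheroid shNeg replicate 1, the 13 remained and miR-30c-2-3p and miR-504-5p were added, which made 15, and the 34 calls in adherent cells were all kept.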

How the data were processed

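miR-seq libraries of OV90 cells were analysed, 4 adherent shRELA against 4 adherent shNeg, with the other 16 in the fit. Adapter trimming with Cutadapt and read assignment to miRBase with miRDeep2 were done by the authors, per their methods, and the submitters' processing notes name edgeR and GRCh38. The deposited values are estimated counts for each mature miRNA without scaling for depth, although the table's title says CPM. The kit adds UMIs, and whether these were collapsed is not given in the sources used here. Fractional values, found on 84 miRNAs and making up 3.04% of all values above 0, were rounded.

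A miRNA was tested where 4 or more of 24 libraries reached 1 CPM. Counts were scaled by TMM, and the model in edgeR held a term for group (6 levels) and nothing else (version 4.0.16, R 4.3.3, limma 3.58.1, DESeq2 1.42.0; common dispersion 0.0888). FDRs are Benjamini-Hochberg over the 905 tested. Calls used the study's limits, 0.01 for the FDR and 2 for the fold change in either direction. A standard error is the log2 fold change over the root of F. Ratios of low counts have exact binomial intervals. Named with values are all calls, the 15 lowest and 10 highest with a mean of at least 10 CPM and no overlap (14 and 8 existed), their other arms, called members and range ends of the lists given with their counts in the report (1 further list is not reported here), and the study's 7 and 9 miRNAs, with a few members named after their values were seen (miR-21-5p, miR-221-3p, miR-222-3p, miR-200a-3p, miR-200b-3p, let-7f-5p, let-7i-5p, miR-122-5p, miR-126-3p and miR-181b-5p). The members and lists were chosen with earlier results of these data known. Alternatives covered filters, scaling, tool, libraries in the fit, threshold, a replicate block and each library left out. Hairpins without a sequence entry were placed by RefSeq gene positions.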

Additional observations from a re-analysis of the deposited data

Results flagged for a closer look

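Among 100 sets of 4 libraries examined, 3 held a value far from the other 3, where chance alone gives about 1 in 20. miR-1293 was at 6.67 CPM in adherent shNeg replicate 2 and at 12.4 to 13.3 CPM in the other shNeg libraries. miR-99a-3p was at 0.382 CPM, 2 counts, in adherent shRELA replicate 2 and at 0 in the other 3. miR-200c-3p was at 3263 CPM in adherent shNeg replicate 4 and at 3129 to 3151 CPM in the others.

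For 13 of the 34 miRNAs the log2 change with RELA knockdown differed between spheroid and adherent cells in edgeR's test of that difference. The 34 were selected on the adherent change, which favours smaller changes in spheroids. Given as spheroid minus adherent, the differences within the MIR99AHG locus were 3.27 for miR-99a-5p (FDR 0.00284), 3.87 for miR-125b-2-3p (FDR 0.00301) and 1.60 for miR-125b-5p (FDR 4.11e-04). In spheroids these strands changed by -2.26, -1.06 and -3.45, all nearer to 0 than in adherent cells. miR-99a-5p was there at 0 to 16.8 CPM with shNeg and 0.895 to 2.81 CPM with shRELA, at most 24 and 6 counts. miR-125b-2-3p was at 0 to 8.40 and 0.448 to 4.56 CPM, at most 12 counts in either group. Against a floor of 1.09 to 1.48 CPM with shRELA, neither could show a decrease as large as in adherent cells. Differences that brought a decrease close to 0 in spheroids were 1.78 for miR-891a-5p (FDR 0.00437), 1.49 for miR-1293 (FDR 0.00793) and 1.24 for miR-509-3p (FDR 0.00871). miR-145-5p differed by 1.84 (FDR 0.00639) and miR-181a-2-3p by 1.19 (FDR 0.00218), each still below 0 in spheroids. For miR-146b-5p the difference was 2.04 (FDR 2.92e-05), for miR-503-3p 1.61 (FDR 0.00193) and for miR-378a-5p 1.49 (FDR 1.22e-04), and their spheroid estimates lay above 0, at 0.81, 0.57 and 0.42. let-7d-3p differed by -1.26 (FDR 0.00362) and miR-30a-3p by 1.62 (FDR 4.14e-04). The cultures also differ in medium, and the spheroid libraries held 959141 to 2747599 counts for shNeg and shRELA, so culture, medium and depth cannot be told apart.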

How the results depend on the processing

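Of the 34 calls, 19 (14 down-regulated, 5 up-regulated) were called under all 20 alternatives, 18 of them planned and 2 added after seeing the data, and none of the 34 changed sign. A miRNA that the filter of 10 CPM removed was counted as lost there. miR-99a-3p and miR-125b-2-3p were lost only in that way. Fewer than 12 alternatives kept 7 calls, miR-135b-5p, miR-146b-3p, miR-503-3p, miR-675-3p, miR-2277-5p, miR-5699-3p and miR-7-5p. The count was 57 (17 up-regulated, 40 down-regulated) over the 8 libraries compared, 60 (16 and 44) over the 12 adherent libraries and 42 without spheroid shNeg replicate 1. Leaving out each library gave 24 to 32, with 19 to 24 down-regulated and 5 to 11 up-regulated, 5 without shRELA replicate 1 and 6 without shRELA replicate 4, shNeg replicate 2 or shNeg replicate 4. Without shRELA replicates 1 and 4 it was 29, with 5 up-regulated, 22 of the 34 kept and 7 gained. Without 2 and 3 it was also 29, with 13 up-regulated, 26 of the 34 kept and 3 gained. Library totals in place of TMM moved the median of all miRNAs by -0.11 and gave 34 calls, 6 up-regulated (17.6% against 29.4%). Of these calls, 30 were kept from the main fit and 4 were gained. Median-ratio size factors moved it by 0.06 and gave 35 (34.3% up-regulated). DESeq2 called 41, keeping 33 of the 34, and limma 29, keeping 27. Differences from shRELB came to 98, and 71 to 102 with a library left out, and differences between cultures to 69, and 51 to 72.

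Signs turned only among uncalled miRNAs. miR-141-5p went from 0.08 to -0.022 without a filter, -0.055 with library totals and -0.43 without shRELA replicates 1 and 4, and miR-105-3p from 0.18 to -0.33 without 1 and 4. With 1 library left out they ran from -0.14 to 0.29 and from -0.21 to 0.37, below 0 in each case without shRELA replicate 4. Without 1 and 4, miR-204-5p was at -0.062 and miR-30c-5p at -0.059. The replicate numbers pair no samples by source. Deviations of equal numbers correlated at -0.09, -0.24, 0.16 and -0.66 over 310 miRNAs, and the replicate block gave 31 calls (86 for shRELB, 56 for culture). Depth limits calls under the floor of 3 counts, and the causes of these changes were not tested.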
